A study of Mus musculus with 6 samples.

Results

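The mevalonate pathway enzymes Acat2, Hmgcs1, Mvk, Pmvk, Mvd, Idi1, Fdps and Ggps1 were examined in cumulus granulosa cells of Kun-Ming mice, an outbred stock. The members were chosen by their gene symbols with no cut on a measured value, but earlier results of these data were known at that time. All 8 were found among the 24982 rows of the authors' deposited table. All 8 were among the 14835 genes with an adjusted p-value. RNA of these cells was sequenced in 6 libraries, 3 labelled control and 3 labelled Atg5-KD, the latter being cells in which Atg5 was targeted by transfected short hairpin RNAs. Atg5 encodes a protein needed to build the autophagosome. Age, the number of mice behind each library and what the control cells were given are not stated in the sources used here. The labels do not say whether the 3 libraries of a group stand for separate animals or cultures. The p-values below therefore weigh differences only against the variation among these 6 libraries, and that variation could be technical.

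Mevalonate is the precursor of cholesterol and of all isoprenoids. Cytosolic acetyl-CoA is joined to acetoacetyl-CoA and then to HMG-CoA, which is reduced to mevalonate. Mevalonate is phosphorylated and decarboxylated to isopentenyl diphosphate, the isoprene unit from which farnesyl and geranylgeranyl diphosphate are assembled. Farnesyl diphosphate leads to squalene and cholesterol. Both diphosphates supply isoprenoid groups that are attached to proteins, among them members of the Ras and Rab families. In the follicle, cumulus cells are known to make cholesterol and pass it to the oocyte, and granulosa cells use cholesterol to make steroids. Transcription of the pathway is known to be driven by SREBP2, a membrane-bound factor released when sterols are scarce.

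Acat2 and Hmgcs1, at the entry of the pathway, and Idi1 and Fdps, after isopentenyl diphosphate, had higher transcript levels in Atg5-KD than in control. Mvk, Pmvk and Mvd, which act between them, and Ggps1, at the end, did not pass the test. With the Wald test and Benjamini-Hochberg adjustment of the authors' deposited table, 4 of 8 members were called higher at an adjusted p under 0.05, where 10.4% of all tested genes were called higher. By that same test 0 of 8 were called lower, against 10.5% of all tested genes, and 0 were lower at an unadjusted p under 0.05. The median log2 fold change of the 8 members was 0.39, against 0.00 for all tested genes, computed from the authors' deposited table. The fold changes divide Atg5-KD by control as the groups are ordered in the table's name. The transcript of Atg5 gave no check of that order, since its log2 fold change by the authors' deposited table was -0.06 ± 0.14 (SE) with an adjusted p of 0.822. If the order were turned, each rise below would be a fall.

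**Figure D1:**
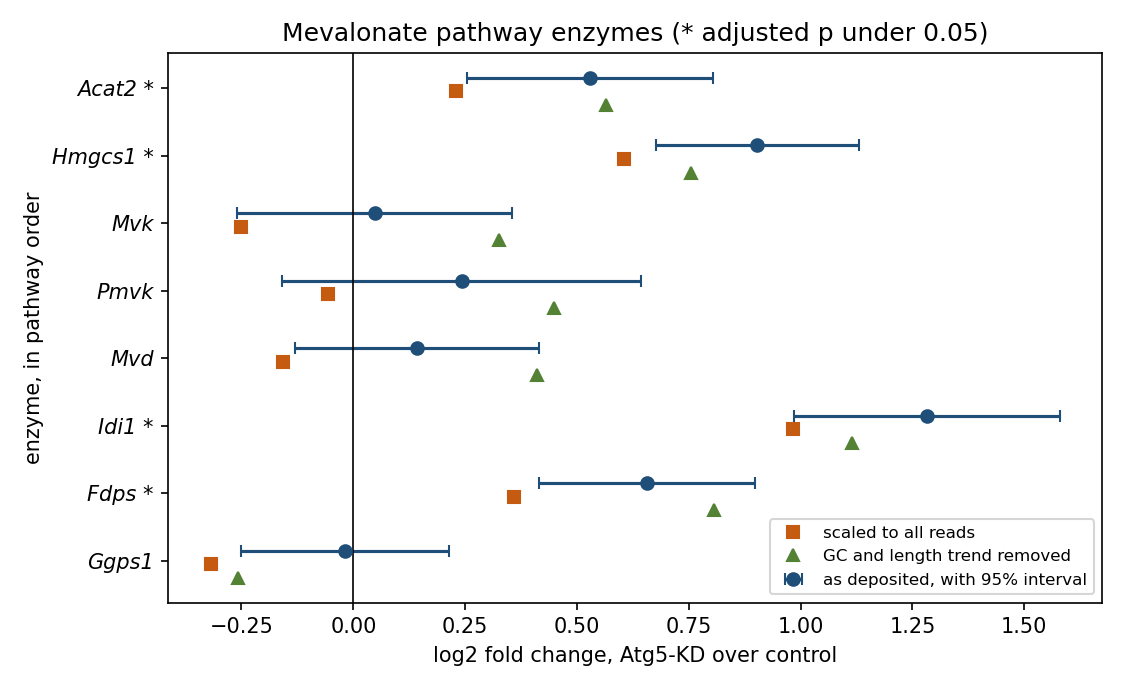
Log2 fold change of Atg5-KD over control for the 8 enzymes in pathway order. Circles with bars are the deposited values with their 95% intervals, squares the values scaled to all reads, and triangles the values with the trend on GC content and length removed. Idi1 lies highest at 1.28 as deposited and stays highest on each scale, and the squares lie 0.30 to the left of the circles.

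The regions before the gene starts are shown because SREBP2 and its partner NF-Y are known to act there on genes of this pathway. RefSeq start windows, each holding 250 bases before and 50 after a start on GRCm38.p6, were found for 7 of the 8 members, in 8 windows since Pmvk has 2 starts. Fdps was not matched. The 250 bases upstream of the start follow for 3 members that rose and for Mvk, which did not pass the test, written 5′ to 3′ on the strand of the gene. Capitals mark every match on either strand to the sterol element TCACNCCAC, to its core CACNCCA, and to CCAAT, the box bound by NF-Y, which reads ATTGG on the other strand. The core is contained in the longer element, so a match to the longer one is also a match to the core.
Hmgcs1: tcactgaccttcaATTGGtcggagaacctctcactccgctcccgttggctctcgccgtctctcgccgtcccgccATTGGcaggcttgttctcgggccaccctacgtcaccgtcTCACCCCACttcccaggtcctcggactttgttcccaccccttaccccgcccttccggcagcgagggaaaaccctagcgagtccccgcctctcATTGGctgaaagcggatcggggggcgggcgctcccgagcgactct
Idi1: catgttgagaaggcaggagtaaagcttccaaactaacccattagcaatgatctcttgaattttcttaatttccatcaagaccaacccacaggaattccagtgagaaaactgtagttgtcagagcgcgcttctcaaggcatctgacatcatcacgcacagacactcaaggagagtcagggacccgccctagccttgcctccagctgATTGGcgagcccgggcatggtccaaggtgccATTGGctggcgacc
Acat2: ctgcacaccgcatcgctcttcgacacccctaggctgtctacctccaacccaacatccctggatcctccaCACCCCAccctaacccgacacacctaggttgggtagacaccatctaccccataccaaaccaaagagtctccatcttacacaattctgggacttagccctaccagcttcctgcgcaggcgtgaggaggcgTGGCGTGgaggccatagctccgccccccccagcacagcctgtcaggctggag
Mvk: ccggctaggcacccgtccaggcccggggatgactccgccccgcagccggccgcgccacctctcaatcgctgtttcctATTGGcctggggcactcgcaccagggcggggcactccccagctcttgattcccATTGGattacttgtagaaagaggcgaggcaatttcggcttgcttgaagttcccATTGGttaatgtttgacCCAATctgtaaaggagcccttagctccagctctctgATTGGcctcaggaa
These stretches are chr13:119690101-119690350 on the plus strand for Hmgcs1, chr13:8885356-8885605 on the plus strand for Idi1, chr17:12960726-12960975 on the minus strand for Acat2 and chr5:114444019-114444268 on the plus strand for Mvk. For Hmgcs1, Idi1 and Acat2 the RefSeq start differs from the GENCODE M21 start of the gene coordinates given below. The RefSeq start of Idi1, 8885606, lies inside the GENCODE gene, which begins at 8885501, and so do its marked boxes. The Acat2 stretch also reaches into its GENCODE gene.

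The longer sterol element stood in 1 of the 8 windows, that of Hmgcs1, beginning 137 bases upstream of the start. It stood in 1.24% of all 32851 RefSeq windows of the same length. The core was found in 2 of 8 windows, those of Hmgcs1 and Acat2, against 18.4% of all windows. CCAAT was present in 6 of 8 windows, or 75%, against 37.4% of all windows, and in 83.3% of the 12 windows of squalene-to-cholesterol enzymes. The windows without it were those of Acat2 and of the second Pmvk start. At least 4 CCAAT boxes stood in the windows of Hmgcs1 and Mvk, and in 1.06% of all windows. The last box of Hmgcs1 begins 10 bases after the start and so is not in the printed stretch. The E-box CACGTG was in 0 of 8 windows, against 7.15% of all windows. Members with at least 1 box were Hmgcs1 and Idi1, called higher, and Mvk, Pmvk, Mvd and Ggps1, which did not pass the test as deposited. Acat2, without a box, was also called higher, and Fdps had no window. Whether the boxes bear on the fold changes was not tested. A match is a string of letters and not a measured binding site.

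**Figure D2:**
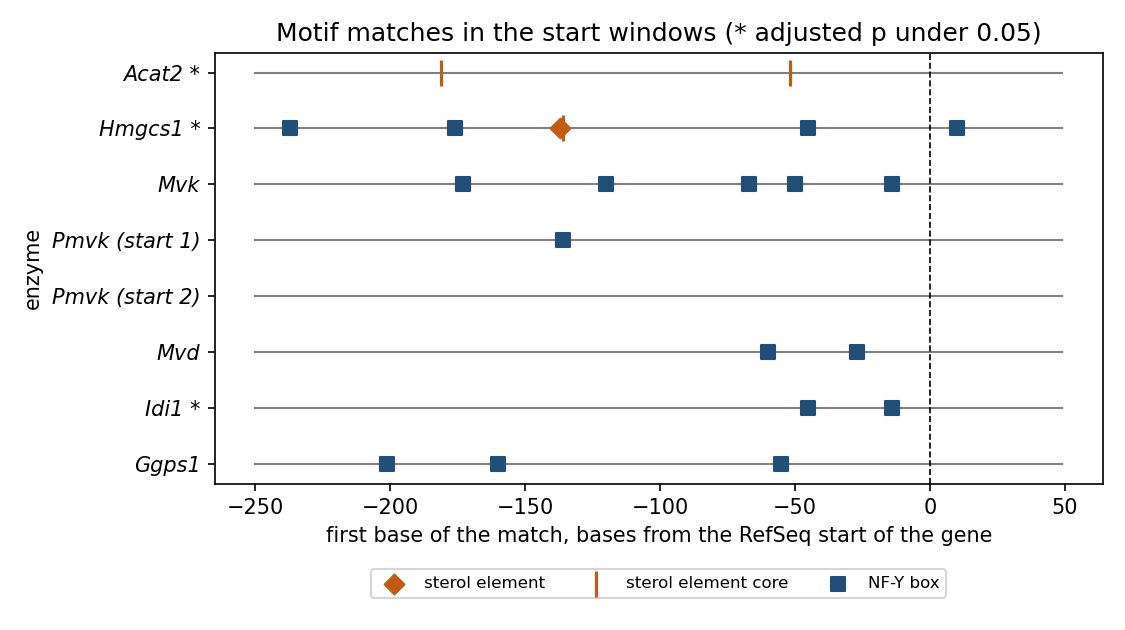
Positions of motif matches along the 8 start windows, in bases from the RefSeq start (dashed line). Each row is a window and asterisks mark members with an adjusted p under 0.05. Squares, the NF-Y boxes, appear in 6 of 8 rows, in rows with and without an asterisk, and the only diamond, the longer sterol element, is in the row of Hmgcs1.

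Both cytosolic enzymes that build HMG-CoA rose. Acat2, the cytosolic thiolase that joins acetyl-CoA units to acetoacetyl-CoA, lies on chromosome 17 from 12942890 to 12960747 of mm10 (GENCODE M21). Its base mean, the authors' mean of size-factor normalized counts over the 6 libraries, was 459 by the authors' deposited table. Group means, which were estimated from base mean and fold change, were 376 normalized counts in control and 543 in Atg5-KD. The log2 fold change of Acat2 by the authors' deposited table was 0.53 ± 0.14 (SE), a 1.44-fold difference with a Wald adjusted p of 0.00167. Acat3, a paralogue of Acat2, had a base mean of 6.85 by the authors' deposited table, and how reads in sequence shared by paralogues or pseudogenes were assigned was not stated in the labels.

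Hmgcs1, the cytosolic HMG-CoA synthase, lies on chromosome 13 from 119690379 to 119708260. Its base mean of 2969 by the authors' deposited table was exceeded among the members by that of Fdps alone. Its estimated group means were 2069 normalized counts in control and 3869 in Atg5-KD. The deposited log2 fold change was 0.90 ± 0.12 (SE), or 1.87-fold, with an adjusted p of 4.97e-13 by the authors' deposited table. Of the 14835 tested genes, 752 had a larger log2 fold change than Hmgcs1.

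The enzymes that turn mevalonate into isopentenyl diphosphate did not pass the test. Mvk, mevalonate kinase, lies on chromosome 5 from 114444269 to 114460591, and had a log2 fold change of 0.05 ± 0.16 (SE) with an adjusted p of 0.881 by the authors' deposited table. Its estimated group means were 247 normalized counts in control and 255 in Atg5-KD. For Pmvk, phosphomevalonate kinase, on chromosome 3 from 89454541 to 89469013, the authors' deposited table gave 0.24 ± 0.20 (SE) and an adjusted p of 0.449. Pmvk had the lowest base mean of the 8, 120 normalized counts by the authors' deposited table, and the widest interval, from -0.16 to 0.64. Mvd, the decarboxylase on chromosome 8 from 122433601 to 122443422, stood at 0.14 ± 0.14 (SE) with an adjusted p of 0.528 by the authors' deposited table. The 95% intervals of the authors' values allow a rise of up to 27.9% for Mvk, 56.2% for Pmvk and 33.3% for Mvd, so smaller rises are not excluded by the spread between libraries.

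The steps after isopentenyl diphosphate were unequal. Idi1, which isomerizes isopentenyl to dimethylallyl diphosphate, lies on chromosome 13 from 8885501 to 8892451. Its estimated group means were 178 normalized counts in control and 434 in Atg5-KD. Idi1 had the largest change of the 8 by the authors' deposited table, a log2 fold change of 1.28 ± 0.15 (SE) with an adjusted p of 2.79e-15. That is a 2.43-fold difference with a 95% interval from 1.98-fold to 2.99-fold, and 450 tested genes had a larger log2 fold change by the authors' deposited table.

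Fdps, which joins isoprene units to geranyl and then farnesyl diphosphate, lies on chromosome 3 from 89093588 to 89101959. The authors' deposited table gave it the highest base mean of the 8, 3032 normalized counts. Its log2 fold change by the authors' deposited table was 0.66 ± 0.12 (SE), or 1.58-fold, with an adjusted p of 2.45e-06, and its estimated group means were 2353 and 3711 normalized counts in control and Atg5-KD. Ggps1, which adds a further isoprene unit to make geranylgeranyl diphosphate, lies on chromosome 13 from 14050659 to 14063488. It stood at -0.02 ± 0.12 (SE) with an adjusted p of 0.941 by the authors' deposited table, with estimated group means of 676 and 667 normalized counts. The interval of Ggps1 ran from -0.25 to 0.21, so a rise of more than 15.9% lies outside it.

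The 95% intervals separated part of the members. Of 28 pairs, 14 had intervals of the log2 fold change that did not overlap. The interval of Idi1, from 0.99 to 1.58, lay above those of every other member except Hmgcs1, whose interval ran from 0.68 to 1.13. Hmgcs1 in turn lay above Mvk, Pmvk, Mvd and Ggps1. Fdps, from 0.42 to 0.90, lay above Mvk, Mvd and Ggps1, and its interval reached that of Pmvk. Acat2, from 0.25 to 0.80, lay above Ggps1 alone. The difference between a called and an uncalled member was not tested beyond these intervals, which treat the errors of both genes as separate although they come from the same libraries.

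Expressed per kilobase of merged exons, the members differed in level far more than in fold change. Fdps was highest at 2087 normalized counts per kilobase over both groups, followed by Hmgcs1 at 853, Mvd at 269, Acat2 at 184, Ggps1 at 153, Mvk at 126, Idi1 at 101 and Pmvk at 70.0. Fdps was thus 29.8-fold above Pmvk, and 97.9% of tested genes with a length had a lower level per kilobase than Fdps. Idi1, and the pair of Acat2 and Ggps1, changed places in this order between the groups. Ggps1 stood just above Acat2 in control, at 154 against 151 per kilobase, and below it in Atg5-KD, at 152 against 218. Idi1 was the lowest of the 8 in control, at 58.9 normalized counts per kilobase against 64.1 for Pmvk. In Atg5-KD it reached 143, above Pmvk at 75.9 and Mvk at 128. The table pools the libraries, so the spread of these levels over samples, and hence which neighbours in the order differ beyond it, could not be judged.

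**Figure D3:**
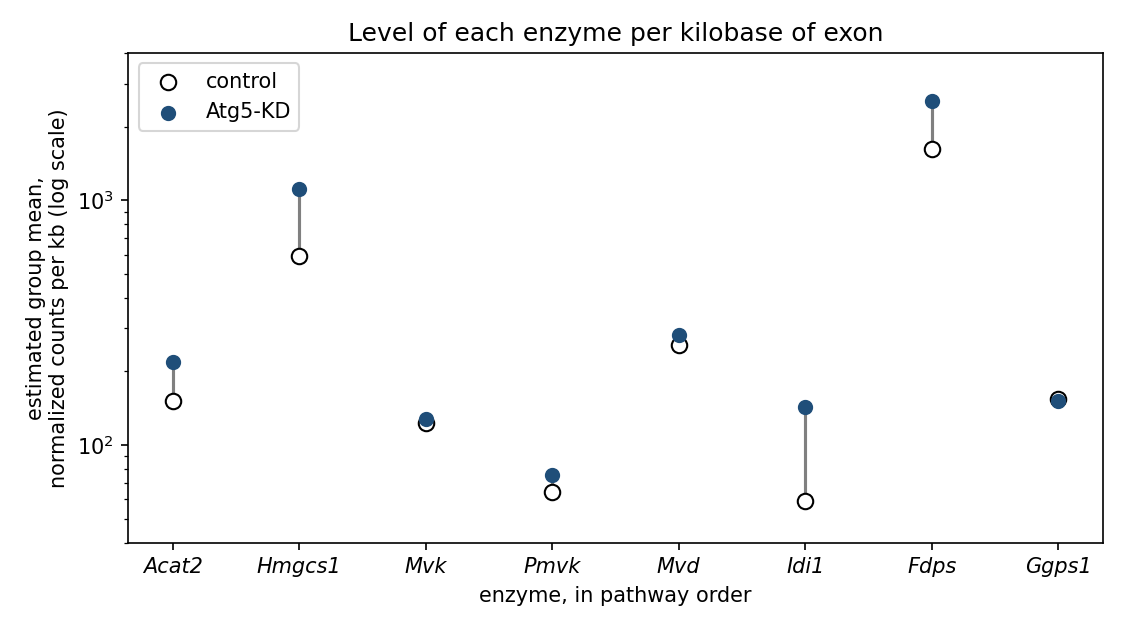
Estimated group mean of each enzyme per kilobase of exon, on a log axis, with open circles for control and filled circles for Atg5-KD. No error is drawn because the deposited values pool the libraries. The longest line belongs to Idi1, from 58.9 to 143, and the points of Mvk and Ggps1 nearly coincide.

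The fold change of all genes followed GC content, and the members differ in it. Among tested genes with a base mean of at least 50, the median log2 fold change fell from 0.27 below 40% GC to -0.30 at 60% GC and above. Mvk, Pmvk and Mvd had GC contents of 59.6%, 57.0% and 59.3% in their longest transcript. Fdps had 54.5%, Acat2 49.6%, Hmgcs1 43.1%, Idi1 41.9% and Ggps1 40.1%. With a smooth trend on GC content and length removed, 5 of 8 members were higher, against 6.22% of genes, and 0 lower, against 7.24%. Mvd then joined the 4 others, at 0.41 with a Benjamini-Hochberg adjusted p of 0.0276 on the recomputed Wald statistics. Mvk stood at 0.32 and Pmvk at 0.45 on this scale without passing, at adjusted p = 0.180 and 0.144, although their 95% intervals, 0.02 to 0.63 and 0.05 to 0.85, did not reach 0. Idi1 stood at 1.11, Fdps at 0.81, Hmgcs1 at 0.76 and Acat2 at 0.56.

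Ggps1 moved the other way, to -0.26 with an interval from -0.49 to -0.02 and an adjusted p of 0.151. Its interval then lay below those of all 7 other members. The number of pairs with separate intervals became 9 of 28. The intervals of Hmgcs1 and Fdps then overlapped those of Mvk, Pmvk and Mvd, and that of Idi1 overlapped those of Acat2, Fdps and Pmvk as well as that of Hmgcs1. The separation of the middle steps from Hmgcs1 therefore depended on this setting, and that of Ggps1 from Acat2, Hmgcs1, Idi1 and Fdps did not.

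**Figure D4:**
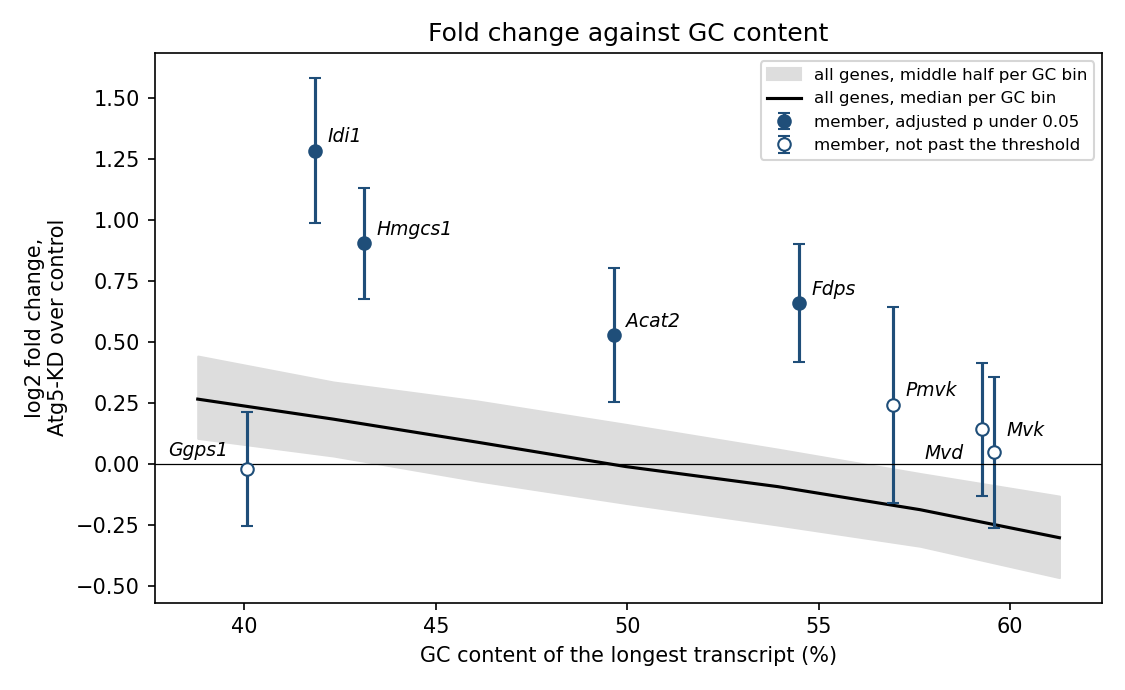
Log2 fold change of Atg5-KD over control against GC content of the longest transcript. The line is the median and the grey band the interquartile range of all genes with a base mean of at least 50 in each GC bin, and points are the members with 95% intervals, filled where the adjusted p was under 0.05. The line falls from 0.27 to -0.30, and Mvk, Pmvk and Mvd lie above it at its GC-rich end while Ggps1 lies below it at the GC-poor end.

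The scale of the fold changes also touched the members. Reads of Rn45s, the ribosomal RNA precursor, made up an estimated 1.17% of normalized counts in control and 17.9% in Atg5-KD. Scaled to all reads, every log2 fold change was shifted by -0.30. Then 3 of 8 members were called higher, against 3.6% of all tested genes, and 1 lower, against 38.7%. Idi1 at 0.98, Hmgcs1 at 0.60 and Fdps at 0.36 were the higher members, the last with an adjusted p of 0.0112. Acat2 lost its call at 0.23 (adjusted p = 0.179) and Ggps1 was called lower at -0.32 (adjusted p = 0.0205), both by Benjamini-Hochberg on shifted Wald statistics. With Rn45s left out of the total the shift was -0.03 and the same 4 genes, Acat2, Hmgcs1, Idi1 and Fdps, were called higher, against 9.24% of all tested genes. In a test against a log2 fold change of 0.3 in place of 0, 2 of 8 members, Idi1 and Hmgcs1, were called higher, against 2.47%.

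Enzymes farther down the sterol branch rose in part. Of the 13 enzymes from squalene to cholesterol, 7 were higher and 0 lower by the authors' deposited table, against 10.4% and 10.5% of all tested genes. At an unadjusted Wald p under 0.05 the counts were 10 and 0, against 2317 and 2357 of all 14835 tested genes. The median log2 fold change of the 13 enzymes was 0.46, against 0.39 for the mevalonate enzymes. The 3 with the smallest adjusted p by the authors' deposited table were Cyp51, which removes a methyl group from lanosterol, at 0.80 ± 0.13 (SE), Lss, which closes the sterol rings, at 0.79 ± 0.13 (SE), and Msmo1, a sterol oxidase, at 0.62 ± 0.12 (SE). Scaled to all reads, 4 of the 13 were higher and 2 lower, against 3.6% and 38.7% of all tested genes.

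In the list of SREBP processing and sterol sensing, Insig1 and Mbtps2 were called higher. Of its 11 genes, 2 were higher and 0 lower by the authors' deposited table, against 10.4% and 10.5% of all tested genes. At an unadjusted Wald p under 0.05 the counts were 2 and 1, against 2317 and 2357 of all 14835 tested genes. The lower gene was Mbtps1 at -0.21 ± 0.09 (SE) by the authors' deposited table. Insig1, an SREBP target that helps to retain the factor in the endoplasmic reticulum, stood at 0.58 ± 0.15 (SE) and Mbtps2, the protease that makes the second cut of SREBP, at 0.44 ± 0.12 (SE) by the authors' deposited table. Neither was called when scaled to all reads. On that scale 0 of the 11 were higher and 5 lower, against 3.6% and 38.7% of all tested genes. Mbtps2 was also not called with the GC and length trend removed (adjusted p = 0.380). The acetyl-CoA supply had 0 of 3 genes called by the Wald test of the authors' deposited table, and 0 at an unadjusted p under 0.05. Acly, which splits citrate and is the enzyme in the series title, stood at 0.17 ± 0.10 (SE), and Slc25a1, the mitochondrial citrate carrier, at -0.01 ± 0.10 (SE) by the authors' deposited table. Scaled to all reads, Slc25a1 was called lower at -0.31 (adjusted p = 0.00436).

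Among ketone-body enzymes and paralogues of the members, only Bdh1 was called, as lower. Of 7 such genes 6 were tested, and 0 were higher and 1 lower by the authors' deposited table, against 10.4% and 10.5% of all tested genes. At an unadjusted Wald p under 0.05 the counts were 0 and 1, against 2317 and 2357 of all 14835 tested genes. The untested gene was Idi2, a low-count paralogue of Idi1 with a base mean of 3.00 and an unadjusted p of 0.00526 toward higher in Atg5-KD by the authors' deposited table. Bdh1, which interconverts ketone bodies, stood at -0.40 ± 0.16 (SE) with an adjusted p of 0.0497 by the authors' deposited table, a call lost with the GC and length trend removed (adjusted p = 0.200), with no filter on low counts (0.0642) and when centred on the median (0.0551). Scaled to all reads, 4 of the 6 tested genes were lower and 0 higher, where 38.7% of all tested genes were lower and 3.6% higher.

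Of the genes that use isoprenoid diphosphates, Chm, Pdss1 and Pdss2 were called higher and Fntb lower. In protein prenylation 1 of 11 genes was higher and 1 lower by the authors' deposited table, shares near the 10.4% and 10.5% of all tested genes. At an unadjusted Wald p under 0.05 the prenylation counts were 4 and 1, against 2317 and 2357 of all 14835 tested genes. Chm, the escort protein that presents Rab proteins for geranylgeranylation, stood at 0.53 ± 0.13 (SE) and Fntb, the beta subunit of farnesyltransferase, at -0.54 ± 0.15 (SE) by the authors' deposited table. Neither was called with the GC and length trend removed (adjusted p = 0.332 and 0.0619), and Chm was also lost when scaled to all reads (0.135). Among coenzyme Q genes 2 of 7 were higher and 0 lower by the authors' deposited table, against 10.4% and 10.5% of all tested genes. They were Pdss1 at 0.57 ± 0.21 (SE) and Pdss2 at 0.54 ± 0.20 (SE), the subunits of the synthase that makes the isoprenoid tail, with adjusted p of 0.0344 and 0.0374 by the authors' deposited table, and neither was called when scaled to all reads. Pdss1 was also lost with the GC and length trend removed (adjusted p = 0.0838) and Pdss2 with Rn45s left out of the total (0.0525), and neither passed an adjusted p of 0.01. Dolichol synthesis had 0 of 5 genes called by the Wald test of the authors' deposited table, and at an unadjusted p under 0.05 there was 1 in each direction. Its most abundant members Nus1 and Dhdds, the subunits of the prenyltransferase that elongates the dolichol chain, stood at 0.23 ± 0.09 (SE) and -0.22 ± 0.11 (SE) by the authors' deposited table. Scaled to all reads, where 38.7% of all tested genes were called lower, 5 of 11 prenylation genes, 4 of 7 coenzyme Q genes and 4 of 5 dolichol genes were lower and 0 higher.

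**Figure D5:**
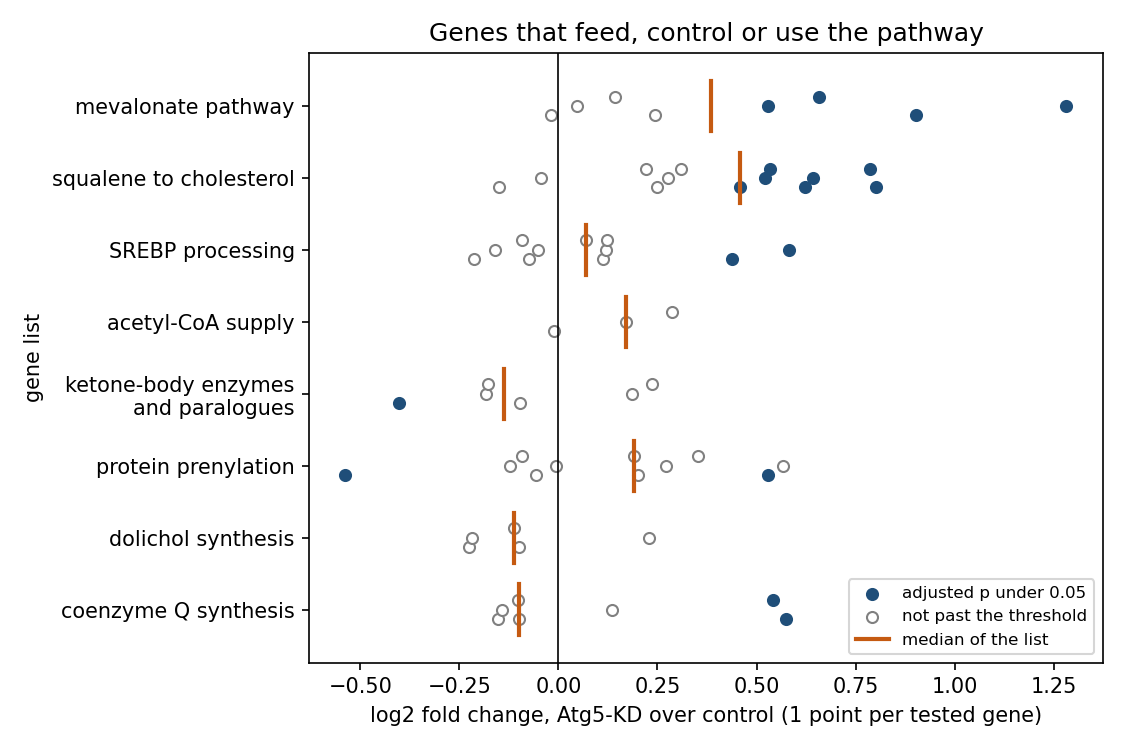
Log2 fold change of Atg5-KD over control for each tested gene of the mevalonate pathway and of the lists that feed, control or use it. Filled points had an adjusted p under 0.05 and orange bars are list medians. The medians of the mevalonate and sterol lists are 0.39 and 0.46, and the leftmost point is Fntb, of the prenylation list, at -0.54.

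Mvk and Ggps1 each share a start region with another gene. Mvk and Mmab, a cobalamin adenosyltransferase, are transcribed away from each other with starts 209 bases apart, and their RefSeq windows share 259 bases. Mmab stood at -0.03 ± 0.14 (SE) by the authors' deposited table, beside 0.05 for Mvk. Ggps1 and Arid4b, a chromatin protein, start 256 bases apart on opposite strands and overlap by 257 bases. Arid4b was called higher at 0.43 ± 0.12 (SE) by the authors' deposited table while Ggps1 was not, but their 95% intervals, 0.20 to 0.65 and -0.25 to 0.21, overlap and the difference was not tested. Arid4b lost its call with the GC and length trend removed (adjusted p = 0.533) and when scaled to all reads (0.402). The strand setting of the authors' counting was not stated in the labels, so reads in the overlap could count for either gene. Predicted genes that overlap Hmgcs1, Mvd, Idi1 and Fdps in GENCODE M21 are not analysed here.

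The labelled cell type was checked against its markers. The most abundant granulosa markers were Inha and Inhba, subunits of inhibin and activin, with base means of 30063 and 24381 by the authors' deposited table, while Amh and Cyp19a1 were near absent at 6.07 and 2.34. Of 9 tested granulosa markers 3 were higher and 1 lower, where 10.4% and 10.5% of all tested genes were so called. The summed estimated level of the granulosa markers was 60166 in control and 65714 in Atg5-KD. Oocyte markers had base means of at most 19.8, the highest being Gdf9 and Zp2, and 0 of 5 tested were called or had an unadjusted p under 0.05. Leukocyte markers were lower in 9 of 10 cases by the authors' deposited table, against 10.5% of all tested genes. The summed estimated level of the leukocyte markers was 2171 normalized counts in control and 508 in Atg5-KD, with Lyz2 and Cd68 the most abundant. Of 6 tested theca and stroma markers, led by Col1a1 and Col1a2, 5 were lower by the authors' deposited table, and the summed level of the 7 markers went from 7976 to 4662, with Cyp17a1, the defining enzyme of theca cells, at a base mean of 0.131. For endothelial markers, led by Egfl7 and Eng, 0 of 6 were called by the authors' deposited table. At an unadjusted p under 0.05, 1 of the 6 was lower, as were 2357 of all 14835 tested genes. The part of these cell types in the members' values was not tested, and in bulk RNA fewer cells of a type and less RNA per cell cannot be told apart. The summed level of the 8 mevalonate enzymes went from 6458 to 10104 normalized counts. Hmgcs1 and Fdps made up 68.5% of that sum in control, and 4 of the 8 enzymes were not called.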

How the data were processed

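RNA of 6 libraries, 3 labelled control and 3 labelled Atg5-KD, was sequenced from poly(A) RNA, per the labels. DESeq2 1.30.1, StringTie 2.1.4, featureCounts 1.6.2, STAR and the build mm10 are listed in the submitters' processing notes without roles. Only the authors' own comparison was used. Base means are a signal made by the authors, the mean of size-factor normalized counts per the file headers. Fold changes and standard errors were deposited on the log2 scale. Wald statistics are a deposited score, and each p-value and adjusted p-value was deposited too. Statistic, p and adjusted p were recomputed from the log2 values with 0 mismatches over 14835 genes at a tolerance of 1e-06. The table has 0 columns per library, so read depth per library is unknown here and precision is given by the standard errors.

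Group means were computed from base mean and fold change with 3 libraries a group, and 95% intervals are normal. Levels per kilobase use merged exons of the GENCODE M21 basic set, and GC content and length the longest transcript, found for 99.0% of tested genes. The trend was a lowess of span 0.3 on GC content and then on length. Alternatives were other scales, a base mean minimum of 50, no filter, adjusted p under 0.01, and a test against a log2 fold change of 0.3. Calculations used Python 3.11.15, numpy 2.4.6, scipy 1.17.1 and statsmodels 0.14.6, and were tested on simulated data. All 8 members are named. From each other list come up to 3 called genes of smallest adjusted p, or the 2 of highest base mean where none was called, or for markers the 2 of highest base mean. Neighbours starting within 1000 bases of a member or overlapping it, and Atg5, are also named. Acat3, Amh, Cyp19a1, Cyp17a1 and Idi2, and Scap, Srebf2, Srebf1 and Mbtps1, stand outside this rule, having been picked once their values were known. Members and lists were chosen with earlier results of these data known. Lists are described by counts and medians, with no list test. Of the genes considered for the lists, 1 is not reported here.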

Additional observations from a re-analysis of the deposited data

How the results depend on the processing

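Idi1 and Hmgcs1 kept their direction and call in the 8 alternatives run. Fdps and Acat2 kept their direction in all 8, and lost their calls in a test against a log2 fold change of 0.3 (adjusted p = 0.0761 and 0.890), which left 2 members higher. Acat2 was also lost when scaled to all reads, where 1 member, Ggps1, was called lower. Scaling to all reads turned the values of Mvk to -0.25, Pmvk to -0.056, Mvd to -0.16, Acly to -0.13 and Nus1 to -0.070, none of them called. Removing the GC and length trend turned Slc25a1 to 0.25 and Mmab to 0.082, neither called. Over the 8 members and 8 alternatives, 56 values kept direction and call, 3 lost a call, 2 gained one and 3 reversed. The cause of the differences was not tested. Over all tested genes the calls were 1541 higher and 1559 lower as deposited, 534 and 5735 scaled to all reads, 1026 and 1030 at an adjusted p under 0.01, 366 and 312 against 0.3, and 913 and 1063 with the trend removed. No paired analysis was possible because the table holds no values per library. For the same reason leaving out each replicate and a comparison of size factors with TMM were not run. Pmvk, at a base mean of 120, had the largest standard error of the 8 members, 0.20.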

Other observations

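Idi2, a paralogue of Idi1 known from skeletal muscle, had no adjusted p by the authors' deposited table, at a base mean of 3.00. Its estimated group means were 0.270 normalized counts in control and 5.73 in Atg5-KD, and adjusted over all 19241 genes with a p-value its adjusted p was 0.0377. No fold is given for it because the control level is under a single count.

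Scap, the sterol sensor that escorts SREBP, had a base mean of 10127 by the authors' deposited table, or 2396 normalized counts per kilobase, above Srebf2 at 489 and Srebf1 at 311 per kilobase. Against Fdps, the highest mevalonate enzyme, its estimated level was higher in control, 2472 against 1619 per kilobase, and lower in Atg5-KD, 2319 against 2554. The log2 fold change by the authors' deposited table was -0.09 ± 0.10 (SE) for Scap, 0.07 ± 0.11 (SE) for Srebf2 and -0.16 ± 0.11 (SE) for Srebf1. None of them was called as deposited.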
